A study of Mus musculus with 6 samples.

Results

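ISG15 is a small protein related to ubiquitin that cells attach to other proteins after exposure to type I interferon. The results below describe the transcripts of the 5 genes that make, attach and remove it: Isg15 itself, the activating enzyme Uba7 (E1), the conjugating enzyme Ube2l6 (E2), the ligase Herc6 (E3) and the protease Usp18. They were chosen by symbol, as every probe set annotated to one of these genes, which gave 10 of the 45037 probe sets that were not array controls. The platform has 18193 genes with a probe set of their own. Expression was measured in heart ventricle with biotin-labelled Affymetrix arrays, 1 array per mouse. The Trex1 KO group held 3 mice lacking the cytosolic DNA exonuclease Trex1, and the Trex1 WT group held 3 mice with wild-type Trex1. Every mouse of both groups was also a Rag2 knockout, and so was without the recombination that T and B lymphocytes need to mature. The mice formed 3 littermate pairs (A, B and C), each of 1 Trex1 KO and 1 Trex1 WT animal. The labels give neither age nor the Trex1 allele. The comparison asks how transcripts of the ISG15 system in the ventricle change with loss of Trex1.

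Conjugation of ISG15 runs through the same 3 kinds of enzyme as that of ubiquitin. Uba7 activates ISG15, Ube2l6 carries it, and a ligase, in mice chiefly Herc6, passes it to lysines of target proteins, many of them newly made. Usp18 cuts ISG15 from its targets and, apart from that activity, binds the type I interferon receptor and dampens its signalling. All 5 genes are known to be inducible by interferon. Trex1 degrades stray DNA that would otherwise feed the cGAS and STING pathway, which leads to type I interferon.

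The Trex1 transcript itself gave signals of 9.45, 20.6 and 34.2 in Trex1 KO mice A, B and C, against 714, 340 and 887 in Trex1 WT mice A, B and C. The groups were far apart, in the direction of their labels (log2 difference -4.10, SE 0.38, limma adjusted p = 0.00109). That probe set is annotated to Atrip and Trex1 together and may lie outside the deleted part, which the labels do not place. Signals are the authors' MAS5 values on a linear scale, and the 27 bacterial control probe sets with no counterpart in the sample reached 69.8 at most. All differences below are Trex1 KO minus Trex1 WT in log2(signal + 16). They were tested over 27022 probe sets in limma, with a threshold of 0.05 on the Benjamini-Hochberg adjusted p. Folds are these differences taken off the log2 scale. They are thus ratios of signal + 16, and the added 16 makes them smaller than ratios of the printed signals, most so for dim probe sets. The precision rests on 3 arrays per group. Cardiomyocyte markers were bright on every array, their summed signal running from 398162 to 442297 in Trex1 KO and from 362287 to 464333 in Trex1 WT. Of 8 T and B lymphocyte markers with a probe set of their own, 7 lay below the filter on dim probe sets.

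Promoters of the members are shown because 3 of the 5 genes moved together and because interferon acts on such genes largely through 1 DNA element, the interferon-stimulated response element (ISRE). A window of 300 bases around the start site (RefSeq, build GRCm38.p6) was available here for 4 of the 5 members. None was available for Usp18, so the matches below leave out 1 of the 3 genes that rose. Each line below holds the 120 bases just before the start site, 5′ to 3′ on the strand of the gene, and capitals mark matches to the ISRE core, which was searched on either strand as GAAA, any 2 bases and GAAA again.
Isg15, chr4:156200819-156200938, minus strand: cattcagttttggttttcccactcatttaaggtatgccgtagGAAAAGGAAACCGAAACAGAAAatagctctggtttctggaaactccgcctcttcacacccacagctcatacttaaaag
Uba7, chr9:107975447-107975566, plus strand: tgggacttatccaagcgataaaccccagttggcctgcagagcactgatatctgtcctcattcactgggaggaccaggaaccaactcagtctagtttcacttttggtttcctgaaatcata
Ube2l6, chr2:84798708-84798827, plus strand: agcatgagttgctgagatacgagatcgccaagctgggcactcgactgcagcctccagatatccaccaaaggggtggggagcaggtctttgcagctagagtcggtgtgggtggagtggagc
Herc6, chr6:57580872-57580991, plus strand: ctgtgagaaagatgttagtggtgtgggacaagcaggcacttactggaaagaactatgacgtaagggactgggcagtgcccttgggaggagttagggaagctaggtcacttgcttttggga

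The Isg15 promoter held 3 overlapping matches to the ISRE core, between 78 and 57 bases before the start site, and the whole windows of Uba7, Ube2l6 and Herc6 held 0. Across 32851 such RefSeq promoter windows of the same length, 3.44% held at least 1 match. When 1 mismatch was allowed, 35.4% of all windows matched. Uba7 then had matches 27 to 18 and 21 to 12 bases before the start site. It also had 1 just past the start site (-3 to -12 on the same count), outside the stretch printed above. Herc6 had 1 at 197 to 188 bases before the start site, also outside the printed stretch, and Ube2l6 had none in its window. The GAS element TTCNNNGAA, another interferon-responsive site, was found in none of the 4 windows and in 8.3% of all. Such matches describe letters only and do not show binding.

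Isg15, Usp18 and Herc6 were higher in Trex1 KO hearts, by 8.89-fold, 10.1-fold and 3.55-fold, while the E1 Uba7 and the E2 Ube2l6 had smaller differences that did not pass the test. Among the 10 probe sets, 3 rose and 0 fell, 1 for each of those 3 genes, whereas 0.218% of all tested probe sets rose (59 of 27022) and 0.0259% fell (7 of 27022). Uba7 and Herc6 hold 7 of the 10 probe sets between them, so the counts and the median that follow do not describe separate genes. All 3 Trex1 KO signals lay above all 3 Trex1 WT signals for 7 of the 10, all Herc6 probe sets among them, against 5.57% of all tested probe sets. Each Trex1 KO mouse exceeded its littermate for 8 of the 10, against 14.2% of all. At least a 2-fold rise within every littermate pair was seen for 4 of the 10, against 0.218% of all. The median difference over the 10 was 1.30, and over all tested probe sets it was -0.01. With the littermate pair as a block, 4 of the 10 rose, the added one being a dimmer Herc6 probe set, against 0.389% of all.

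**Figure D1:**
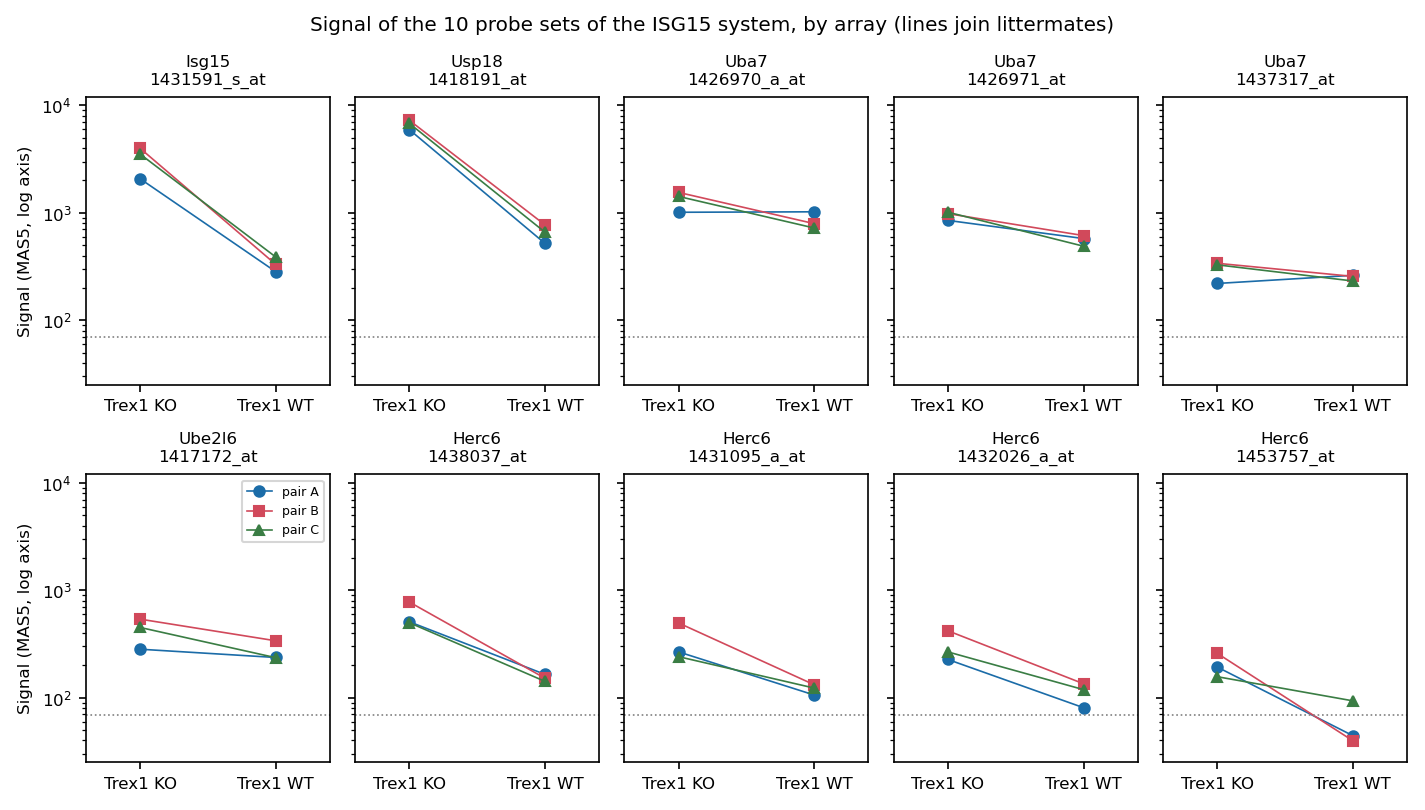
Signal of each of the 10 probe sets (log axis) on the 3 Trex1 KO arrays (left of each panel) and the 3 Trex1 WT arrays (right); lines join littermates, and the dotted line marks the highest bacterial control, 69.8. The lines of Isg15 and Usp18 are steepest, with the Trex1 KO end high, those of Herc6 are less steep, and those of Uba7 and Ube2l6 are shallow, with pair A flat on the brightest Uba7 probe set.

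Isg15, the modifier, is measured by 1 probe set, 1431591_s_at, that is also annotated to Gm9706, a pseudogene on another chromosome, so the signal may include both. Its signals were 2073, 3981 and 3516 in Trex1 KO mice A, B and C, against 283, 331 and 388 in Trex1 WT mice A, B and C. The lowest Trex1 KO signal was several times the highest Trex1 WT signal, and the Trex1 KO arrays were spread more widely, at 3190 ± 995 against 334 ± 52.5 (SD, n = 3 each). The rise was 3.15 on the log2 scale (SE 0.22, limma adjusted p = 0.000182), the sixth largest of all tested probe sets. Within littermate pairs A, B and C it was 6.97-fold, 11.5-fold and 8.73-fold. The Actb 3′ to 5′ ratio, a measure of RNA integrity, separated the groups (1.66, 1.6 and 1.68 in Trex1 KO, against 2.09, 2.29 and 1.80 in Trex1 WT). When this ratio entered the fit as a covariate, the Isg15 difference was 2.83 (limma adjusted p = 0.0687).

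Usp18, the ISG15 protease and brake on interferon signalling, had the largest and most even rise of the 5 genes. On probe set 1418191_at its signals were 5940, 7253 and 6786 in Trex1 KO mice A, B and C, against 519, 772 and 660 in Trex1 WT mice A, B and C. Both groups were tight, at 6660 ± 666 in Trex1 KO and 650 ± 127 in Trex1 WT (SD, n = 3 each), and did not come near each other. The pairs differed by 11.1-fold, 9.22-fold and 10.1-fold in A, B and C, and the log2 difference was 3.34 with an SE of 0.15 (limma adjusted p = 6.54e-06). It ranked 4 among all tested probe sets by size of rise. Of the 5 genes, Usp18 alone passed when the Actb ratio was a covariate (3.43, limma adjusted p = 0.00323). The pair differences of Usp18 (3.20 to 3.48) lay within those of Isg15 (2.80 to 3.53), so the 2 rises did not differ beyond their spread.

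Herc6, the main ISG15 ligase of mice, is covered by 4 probe sets. The brightest, 1438037_at, gave 509, 777 and 499 in Trex1 KO mice A, B and C, against 165, 152 and 142 in Trex1 WT mice A, B and C. The Trex1 WT arrays were nearly level and every Trex1 KO array lay well above them, with mouse B highest. The rise was 1.83 on the log2 scale (SE 0.20, limma adjusted p = 0.00373), or 2.9-fold, 4.72-fold and 3.26-fold in pairs A, B and C. This call was lost without pair A (1.97, limma adjusted p = 0.115), without pair C (1.89, limma adjusted p = 0.0502) and in the fit with the Actb ratio (1.80, limma adjusted p = 0.297). All pair differences of this probe set lay below those of Isg15 and Usp18 and above those of the brightest Uba7 probe set and of Ube2l6.

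The other 3 Herc6 probe sets were also higher in every Trex1 KO mouse than in any Trex1 WT mouse, and none passed in the fit of all 6 arrays without the littermate block. Probe set 1431095_a_at averaged 335 ± 141 in Trex1 KO and 120 ± 12.9 in Trex1 WT (SD, n = 3 each), a difference of 1.30 (SE 0.27, limma adjusted p = 0.175). Probe set 1432026_a_at averaged 305 ± 102 in Trex1 KO and 112 ± 27.9 in Trex1 WT (SD, n = 3 each), a difference of 1.31 (SE 0.27, limma adjusted p = 0.175, and 0.0346 with the pair block). The dimmest, 1453757_at, gave 193, 259 and 157 in Trex1 KO mice A, B and C, against 44.4, 39.8 and 93.6 in Trex1 WT mice A, B and C. On it, Trex1 WT mice A and B lay below the highest bacterial control and mouse C above it. Its difference was 1.58 (SE 0.33, limma adjusted p = 0.17, and 0.0446 without Trex1 WT C). The suffix _a in these names marks probes that match several transcripts of the same gene, so the 4 probe sets need not count the same transcripts.

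**Figure D2:**
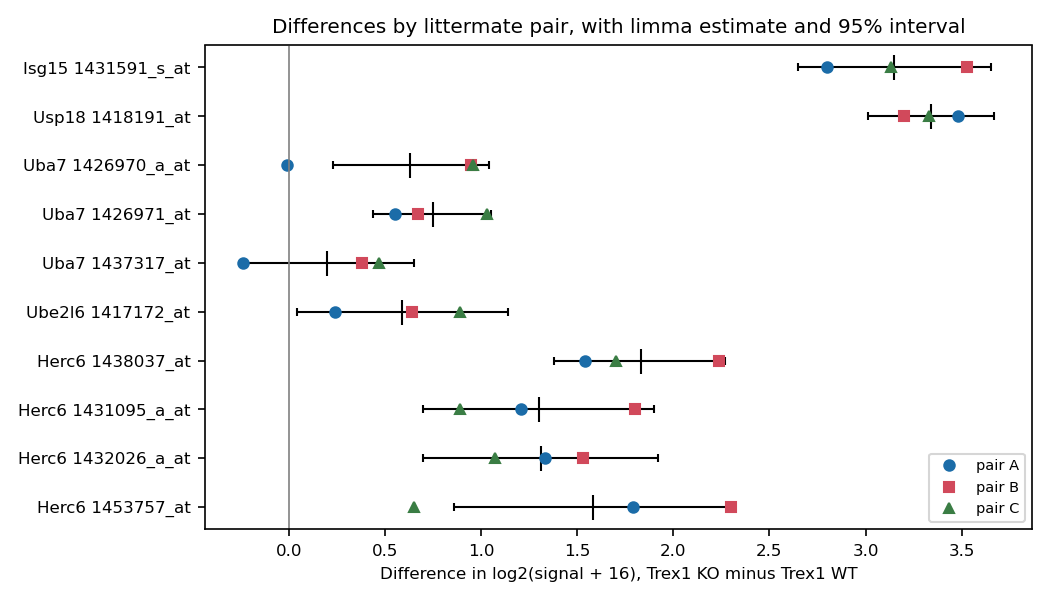
Difference in log2(signal + 16), Trex1 KO minus Trex1 WT, of each probe set within littermate pairs A, B and C (points), with the limma estimate (tick) and its 95% interval (bar). Isg15 and Usp18 lie near 3, the Herc6 probe sets between 1.30 and 1.83, and Uba7 and Ube2l6 between 0.20 and 0.75.

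Uba7, the E1, is covered by 3 probe sets, which did not move alike. The brightest, 1426970_a_at, gave 1012, 1548 and 1420 in Trex1 KO mice A, B and C, against 1022, 793 and 722 in Trex1 WT mice A, B and C. Littermates B and C differed by 1.93-fold and 1.94-fold and the littermates of pair A did not differ (0.991-fold), so the groups overlapped. The log2 difference was 0.63 (SE 0.18, 95% interval 0.23 to 1.04 before adjustment, limma adjusted p = 0.57), and it was 0.96 without pair A (limma adjusted p = 0.257). The second probe set, 1426971_at, gave 850, 983 and 1013 in Trex1 KO mice A, B and C, against 576, 614 and 489 in Trex1 WT mice A, B and C. Its groups did not overlap, and it came closest to the threshold of the Uba7 probe sets (0.75, SE 0.14, limma adjusted p = 0.0935, and 0.0597 with the pair block). The third, 1437317_at, averaged 295 ± 65.7 in Trex1 KO and 250 ± 15.9 in Trex1 WT (SD, n = 3 each), with overlapping groups (0.20, SE 0.20, limma adjusted p = 0.959).

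Ube2l6, the E2, has 1 probe set, 1417172_at. It gave 283, 539 and 451 in Trex1 KO mice A, B and C, against 237, 339 and 236 in Trex1 WT mice A, B and C. Each Trex1 KO mouse was above its littermate, by 1.18-fold, 1.56-fold and 1.85-fold, but Trex1 WT mouse B was above Trex1 KO mouse A. The log2 difference was 0.59 (SE 0.25, 95% interval 0.04 to 1.14 before adjustment, limma adjusted p = 0.89, and 0.386 with the pair block). The pair differences of Ube2l6 (0.24 to 0.89) lay within those of the brightest Uba7 probe set (-0.01 to 0.96). The intervals of the brightest Uba7 probe set and of Ube2l6 reach 1.04 and 1.14, so the missed threshold does not show that these enzymes were unchanged.

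**Figure D3:**
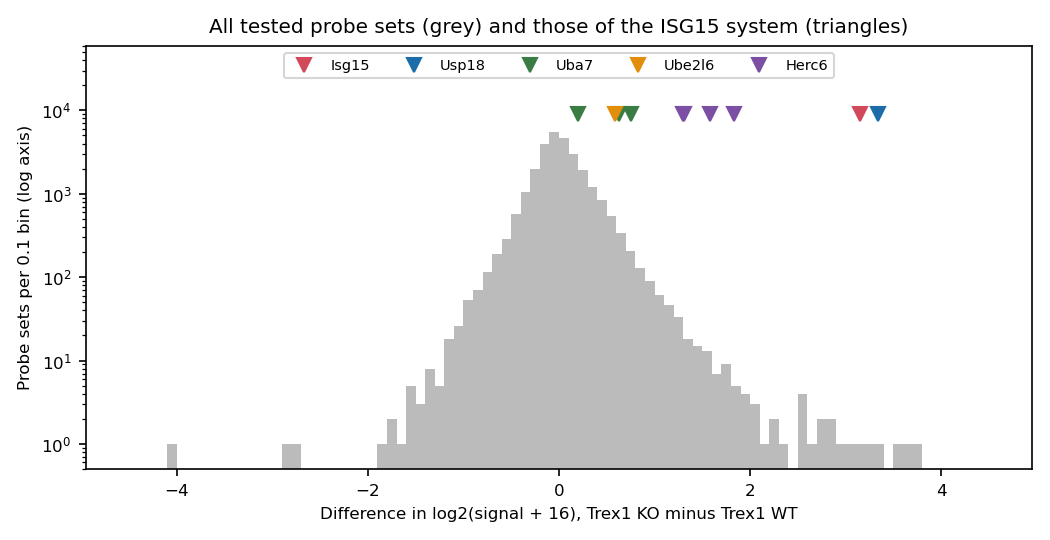
Number of tested probe sets (log axis) by difference in log2(signal + 16), Trex1 KO minus Trex1 WT, in bins of 0.1 (grey), with the 10 probe sets of the ISG15 system as triangles. Isg15 and Usp18 lie in the thin right tail at 3.15 and 3.34, Herc6 where few probe sets lie, and Uba7 and Ube2l6 on the shoulder of the main body.

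The order of the animals was not tested and is given as counts over the 10 probe sets, 7 of which belong to Uba7 and Herc6. Trex1 KO mouse B had the highest signal of the 3 Trex1 KO mice on 9 of the 10, against 29.3% of all tested probe sets. Trex1 KO mouse A had the lowest on 7, against 32.5% of all. Among Trex1 WT mice the order was mixed, with mouse B highest on 5 of the 10, mouse A on 3 and mouse C on 2. The difference within littermates was smallest in pair A for 6 of the 10 probe sets and largest in pair B for 5. The Trex1 WT order and these pair counts have no share over all tested probe sets beside them. They cannot be read as particular to the members. Among the 3 genes that rose, Usp18 alone had its largest difference in pair A (3.48). The brightest Herc6 probe set had its smallest difference in pair A, and the dimmer Herc6 probe sets had theirs in pair C (0.89, 1.07 and 0.65).

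Summed markers of 3 kinds of immune cell were also highest in Trex1 KO mouse B. This order was not particular to immune cells. Among Trex1 KO mice A, B and C, mouse B also led the erythroid sum (2438, 5194 and 4201). It led the endothelial (12337, 14640 and 13148) and fibroblast (46168, 50690 and 47979) sums as well. Sums of cardiomyocyte, T and B lymphocyte, adipocyte, atrial and skeletal muscle markers were, among Trex1 KO mice, highest in mouse C. The summed signal of the 7 natural killer markers with a probe set (of 8 listed) was 928, 2628 and 1188 in Trex1 KO mice A, B and C, against 731, 1052 and 743 in Trex1 WT mice. In Trex1 KO mouse B, Gzma alone gave 1582 of this sum. The summed signal of the 5 neutrophil markers (of 6) was 543, 1564 and 1181 in Trex1 KO, against 661, 592 and 478 in Trex1 WT. In Trex1 KO mouse B most of it was S100a8 (678) and S100a9 (736), which were lower in Trex1 KO in pair A. Mpo and Elane, enzymes of neutrophil granules, were below the filter on dim probe sets, with groups apart in opposite directions. Mpo gave 82.7, 44 and 70.2 in Trex1 KO, against 21.5, 12.2 and 12.6 in Trex1 WT. Elane gave 7.8, 21 and 22 in Trex1 KO, against 51.4, 88 and 86.7 in Trex1 WT. The 11 macrophage and monocyte markers (of 12) summed to 18153, 23646 and 19091 in Trex1 KO, against 16894, 22675 and 14790 in Trex1 WT, so their groups overlapped. In limma 0 of the tested natural killer, neutrophil, and macrophage and monocyte markers passed, and 1, 1 and 3 had an unadjusted p under 0.05. Of the 11 macrophage markers 7 had a positive difference, with a median of 0.20. The 3 below that unadjusted p lay apart between groups in opposite directions, with Fcgr1 at 0.73, C1qa at 0.52 and Cd163 at -1.38. With the pair block Cd163 alone of them passed (limma adjusted p = 0.00855), and C1qa had 0.0597.

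Outside the immune lists, the 4 atrial markers summed to 28573, 30895 and 36237 in Trex1 KO mice A, B and C, against 11343, 19053 and 19378 in Trex1 WT mice A, B and C, so the groups did not overlap. Most of that sum was Nppa, the atrial natriuretic peptide, at 31458 ± 3918 in Trex1 KO and 16165 ± 4540 in Trex1 WT (SD, n = 3 each). Its limma adjusted p was 0.126, or 0.00886 when pairs were blocked. Acta1, the skeletal alpha-actin, had signals of 23656 ± 769 in Trex1 KO and 16526 ± 2080 in Trex1 WT (SD, n = 3 each, 0.52, limma adjusted p = 0.175). Without Trex1 KO mouse B, Isg15 rose by 2.97, Usp18 by 3.27 and Herc6 by 1.62 (limma adjusted p = 0.00112, 0.000111 and 0.0167). The 18S signal, 2834, 1907 and 798 in Trex1 KO and 12811, 13708 and 924 in Trex1 WT, also moved with the groups in pairs A and B, and in pair C the littermates were close. Within pair C, Isg15, Usp18 and Herc6 differed by 8.73-fold, 10.1-fold and 3.26-fold. The part of 18S in the result was not tested. More cells of a type and more RNA per cell cannot be told apart in whole tissue, and the part of any of these cell types in the result was not tested.

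Of 11 tested ligases, proteases and partners outside the 5 members, 0 rose and 0 fell in limma on their brightest probe set, and 2 had an unadjusted p under 0.05, with a median difference of 0.05 beside -0.02 over all 12811 tested genes, of which 0.312% rose and 0.039% fell. The closest to the threshold was Trim25, an interferon-inducible ubiquitin ligase that can also attach ISG15, with 1613, 1888 and 1834 in Trex1 KO mice A, B and C, against 1059, 1360 and 1030 in Trex1 WT mice A, B and C. Its groups did not overlap, and its difference was 0.63 (SE 0.13, limma adjusted p = 0.2), or 0.0489 with the pair block. A dimmer Trim25 probe set, 1425974_a_at, averaged 1565 in Trex1 KO and 908 in Trex1 WT and rose by 0.77 (limma adjusted p = 0.0483). Itgb2, a subunit of the integrin LFA-1, a reported receptor for free ISG15, had a difference of 0.66 that did not pass (limma adjusted p = 0.762). Arih1, another ISG15 ligase, had a difference of -0.04, and the proteases Usp5, Usp13, Usp14 and Usp21, which can bind or cut ISG15 in other settings, had differences between -0.28 and 0.11.

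Of 12 tested genes whose proteins are known to carry ISG15, 2 rose and 0 fell, with a median difference of -0.00. Eif2ak2, the RNA-activated kinase PKR, had signals of 652, 685 and 707 in Trex1 KO mice A, B and C, against 289, 269 and 288 in Trex1 WT mice A, B and C (1.23, SE 0.14, limma adjusted p = 0.00373). Ddx58, the RNA sensor RIG-I, had signals of 1307, 1621 and 1313 in Trex1 KO mice A, B and C, against 605, 617 and 662 in Trex1 WT mice A, B and C (1.14, SE 0.13, limma adjusted p = 0.00392). Both genes had narrow groups that did not overlap, and their dimmer probe sets gave 0.93 to 1.49 and did not pass. Both calls were lost without pair A and without pair C. The other 10 substrates, among them Jak1, Irf3, Tsg101 and Becn1, had differences from -0.13 to 0.21.

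Among 5 tested transcription factors of the interferon response, 1 rose. Irf7, which drives interferon genes and is itself induced, gave 2930, 5615 and 3874 in Trex1 KO mice A, B and C, against 527, 716 and 760 in Trex1 WT mice A, B and C (2.57, SE 0.22, limma adjusted p = 0.000728). Trex1 KO mouse B was highest here too. Stat2 and Irf9, which carry the signal of the type I interferon receptor to the ISRE, had differences of 0.78 and 0.62 with groups that did not overlap, and neither passed (limma adjusted p = 0.613 and 0.222).

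Conjugation systems for other ubiquitin-like proteins showed no such differences. Of 42 tested genes for SUMO, NEDD8, UFM1, URM1, FAT10 and the autophagy modifiers, 0 passed in limma with or without the pair block, and 0 had an unadjusted p under 0.05. Their differences ran from -0.27 to 0.30 with a median of 0.01. The genes nearest to a call in each list were Pias1, a SUMO ligase (-0.23), Dcun1d1, a NEDD8 ligase (0.23), Urm1 (0.28) and Atg10, an autophagy E2-like enzyme (-0.22), with limma adjusted p-values from 0.924 to 0.955. Relatives of the members by family behaved likewise on their brightest probe sets, and of 8 tested 0 passed in limma or had an unadjusted p under 0.05. Uba1 and Ube2l3, close relatives of Uba7 and Ube2l6, had no probe set of their own and were not tested. Uba6, a ubiquitin and FAT10 E1, had a difference of -0.01, and Herc3 and Herc4, relatives of Herc6, had -0.05 and -0.14. Dimmer tested probe sets gave -0.03, 0.56 and -0.09 for Uba6 and -0.36 and -0.02 for Herc4, and none passed. Among the brightest probe sets Herc1 was nearest to a call, with 1071, 1013 and 1053 in Trex1 KO mice A, B and C, against 1260, 1123 and 1270 in Trex1 WT mice A, B and C (-0.22, limma adjusted p = 0.955).

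**Figure D4:**
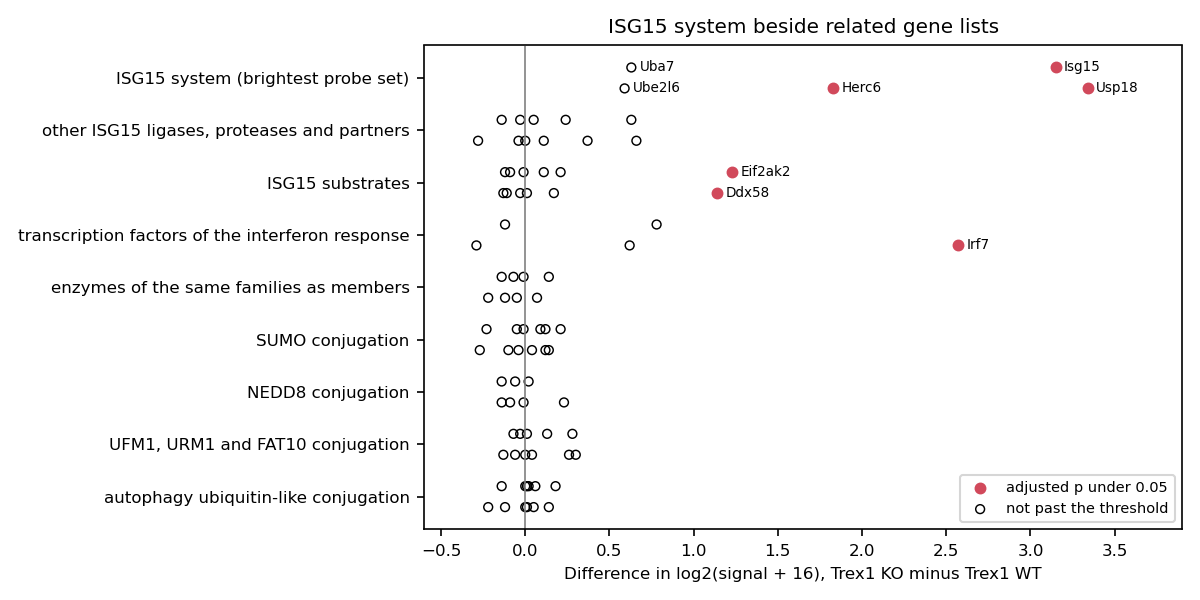
Difference in log2(signal + 16), Trex1 KO minus Trex1 WT, on the brightest probe set of each tested gene, by list; filled points passed the limma test (adjusted p under 0.05). The 5 members reach 3.34, whereas genes of the other ubiquitin-like systems lie between -0.27 and 0.30.

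The genes most like each member were found by the root mean square distance between their 3 within-pair log2 differences. Nearest to Usp18 was Ifi27, an interferon-inducible gene, at a distance of 0.22, followed by Plac8 (0.62) and Oas3 (0.64). Nearest to Isg15 were the same genes in another order, Oas3 (0.39), Ifi27 (0.45) and Plac8 (0.47). Oas3 lay below the highest bacterial control in all 3 Trex1 WT mice, so its distances depend on the pseudocount and its place in these orders has little meaning. Herc6 lay nearest to Apod (0.22), Oas1a (0.30) and Oasl2 (0.31), which had differences of 1.77, 1.60 and 1.75. Ube2l6 lay nearest to Eomes (0.05), Trim6 (0.07) and A230072C01Rik (0.09), and Uba7 to Trim12c (0.11), Npnt (0.12) and Galc (0.13). None of these last 6 genes passed the test, Npnt, Eomes and Trim6 lay below the highest bacterial control on some arrays, and small distances are common among genes with small differences.

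Uba7 differs from the other members in its place, since it lies on chromosome 9 with Trex1, the gene that was disrupted. In the RefSeq gene order (assembly GRCm38.p6) 56 genes lie between them, of which 32 were tested. Of these 32, 0 passed in limma with or without the pair block, 3 had an unadjusted p under 0.05, and their differences ran from -0.86 to 0.18 with a median of -0.04. The brightest Uba7 probe set, at 0.63, lay above all of them. On the whole chromosome, 718 genes were tested, 0 rose in limma (31 with an unadjusted p under 0.05) and 4 fell. Over all chromosomes 5 of the 12811 tested genes fell (0.039%), so 4 of those 5 lay on chromosome 9. These 4, named after their values were seen, were Parp3 (-1.52), Pik3r4 (-1.31), Wdr82 (-1.11) and Ano10 (-0.93), with limma adjusted p-values of 0.00566, 0.0256, 0.0274 and 0.0251. Uba7 stood 33 tested genes from Trex1, between Parp3 at 59 and Trex1 itself. For Uba7, loss of Trex1 and any difference in the chromosome segment inherited with the Trex1 allele cannot be told apart by this design.

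**Figure D5:**
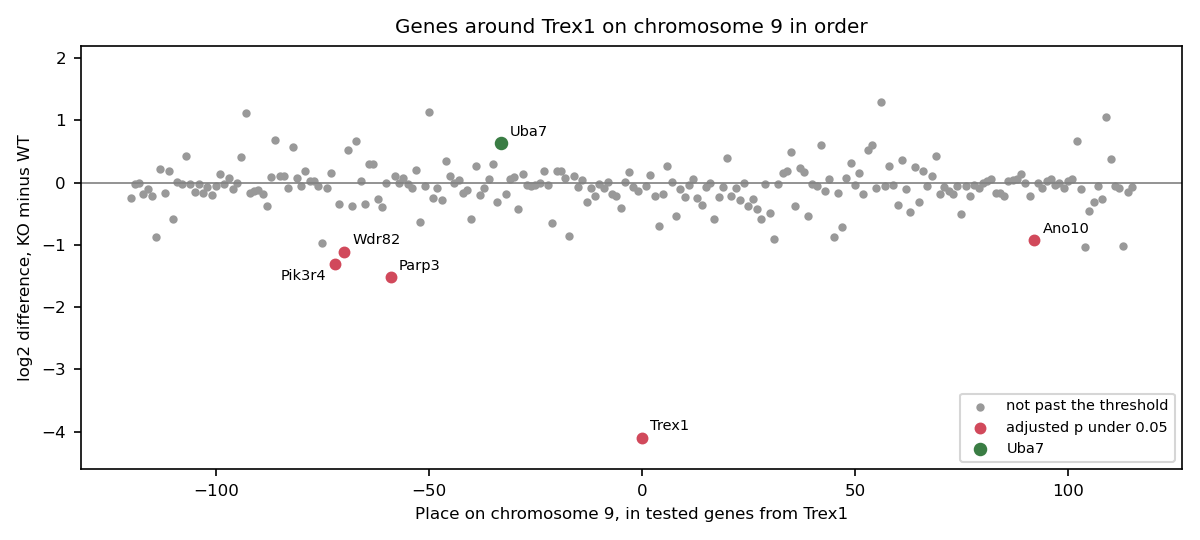
Difference in log2(signal + 16), Trex1 KO minus Trex1 WT, of tested genes on chromosome 9 by their place in gene order from Trex1 (at 0); red points, Trex1 among them, passed the limma test. Uba7 (green, 0.63) lies above the 32 tested genes between it and Trex1, and the other 4 genes in red, all lower in Trex1 KO, lie farther out on either side.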

How the data were processed

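The authors deposited intensity values on a linear scale, which the submitters' processing notes trace to MAS5. Its version and scaling settings are unknown here. Each array had a trimmed mean (2% at either end) of 500.0, so no further normalization was applied. Groups came from the titles, which spell the gene Tre1 in pair C. Values were taken as log2(signal + 16), and probe sets whose mean reached the 40th percentile (a signal of 53.8) were tested. limma 3.58.1 in R 4.3.3 (lmFit, eBayes with an intensity trend) compared 3 Trex1 KO with 3 Trex1 WT arrays, two-sided, with 4 residual degrees of freedom, after a test on simulated data. With 1 array per mouse, p-values reflect the spread between these animals only.

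The series' design text names the littermates, and deviations from group means correlated at 0.151, 0.192 and 0.147 within pairs and between -0.161 and 0.0101 otherwise, so the pair served as a block in an alternative fit. A gene stood for its brightest probe set with a single symbol. Isg15 has only the probe set shared with Gm9706, which was used instead. Names came from the platform annotation (1 symbol for 34945 probe sets, several for 932, none for 9160), with 34741 matched by identifier to RefSeq GRCm38.p6, and genes with no probe set of their own were not analysed here. Named were the members, each list's genes past the threshold or its smallest p, close relatives, the 3 nearest genes by pair differences, and genes near Uba7. Members and lists were chosen with earlier results of these data known. Alternatives were 2 other pseudocounts, 2 filters, quantile normalization, no intensity trend, the Actb ratio as a covariate, the block, the mean over a gene's probe sets, and leaving out arrays or pairs.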

Additional observations from a re-analysis of the deposited data

How the results depend on the processing

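Isg15, Usp18, Herc6, Uba7 and Ube2l6 had a positive difference under every alternative run (17 or 18 each). Usp18 passed under all 17 (3.19 to 3.47), Isg15 under 16 of 17 and Herc6 under 15 of 18, while Uba7 (0.47 to 0.96) and Ube2l6 (0.40 to 0.88) passed under none. With the Actb ratio as a covariate, Isg15 (2.83) and Herc6 (1.80) no longer passed, and 8 probe sets rose and 1 fell. In that fit the SE was 0.40 for Isg15, 0.37 for Herc6 and 0.27 for Usp18, against 0.22, 0.20 and 0.15 in the main fit. The differences of Usp18 (3.43), Uba7 (0.75) and Ube2l6 (0.88) were larger than in the main fit. That ratio separates the groups, so its part and that of genotype cannot be told apart here. Its part in the result was not tested. Herc6 did not pass without pair A (1.97) or pair C (1.89), fits with 2 mice per group. Leaving out each array in turn changed no call of these 5 brightest probe sets. It gave between 33 and 85 probe sets that rose and between 3 and 9 that fell. Leaving out pairs A and C gave 23 and 34 probe sets that rose and 0 and 4 that fell in limma (without pair A, 277 were lower at an unadjusted p under 0.05), and 12 fell without pair B. Of the 5 brightest probe sets, 2 passed without pair A and 2 without pair C. With littermate pairs as a replicate block 105 rose and 16 fell, and no call of the 5 brightest probe sets changed. Without an intensity trend 24 rose and 4 fell. The cause of these shifts in number was not tested. In the related lists, the count of substrates that rose, 2, became 1 in eBayes without the trend and 0 in the fit with the Actb ratio or without pair A or C, and Irf7 did not pass beside the Actb ratio. Signals near the highest bacterial control, as for the dimmest Herc6 probe set in Trex1 WT, limit the size of a fold.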
